A study of Sus scrofa with 9 samples.

Results

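Circular intronic RNAs (ciRNAs) of porcine gametes and 1-cell embryos were examined in the circRNA count table of 3071 rows. The members were the rows whose identifier starts with ciRNA, 46 in all, and they came from 38 host genes. The other 3025 rows carry the prefix circRNA and came from 1702 host genes. Whole-transcriptome libraries had been made from metaphase II (MII) oocytes, pronuclear (PN) embryos and mature sperm, with 3 libraries per group and no treatment in any group. MII oocytes were obtained by maturing cumulus-oocyte complexes in vitro, in medium with eCG, HCG, FSH, FGF-2, IGF-1, LIF and EGF. The complexes came from follicles of gilts aged over 8 months, described as Long White pigs. The MII oocytes were freed of cumulus cells, and 10000 of them were pooled for RNA. PN embryos came from oocytes matured in the same way and fertilized in vitro (IVF), and were taken 18 h after its start, again with 10000 pooled. Sperm came from Large White boars aged 2 to 3 years, whereas the semen used for IVF is described as coming from Landrace boars. The sources used here do not state that each library came from a separate pool of cells or ejaculate, so the spread between libraries may be technical.

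A ciRNA is formed from an intron. During splicing the intron is released as a lariat, a loop with a tail, which the debranching enzyme normally opens. An intron that escapes debranching and loses its tail remains as a closed loop, and such loops are largely found in the nucleus, where some of them act on transcription of the gene they come from. The more common exonic circRNA is formed by back-splicing, in which a splice donor is ligated backwards to an acceptor that lies before it, and it is largely found in the cytoplasm. Mature sperm has little transcription, and the fully grown oocyte is also largely silent, so the RNA of both cells was mostly made earlier in their development.

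The count columns of sperm libraries 1 and 3 were identical in all rows, including the 5 ciRNAs above 0 in them. They were counted as 1 library, named sperm library 1 below, which left 8 distinct libraries. Whether the values belong to sperm library 1 or to sperm library 3 is not known. Total counts lay between 22809 and 26200 in MII oocytes and PN embryos, and sperm libraries 1 and 2 held 155731 and 167851. A count of 3 out of these totals, below which a ciRNA may be missed, was a share of at most 0.0132%. Because of the unequal totals, levels are also given as counts per 1000000 circRNA counts (CPM). Intervals and this limit cover counting error only. As a check of the labels, host genes of the circRNA rows were compared with marker lists. Of 12 oocyte markers, 4 were hosts (KPNA7, NLRP5, ZP2 and ZP3), and none of their 5 circRNAs had a count in sperm. Of 15 sperm and spermatid markers, 2 were hosts (ODF2 and SPATA6), with counts in sperm only. Of 8 cumulus and granulosa markers CYP19A1 alone was a host, with 19 counts in sperm library 1. None of the 4 leukocyte or 4 epithelial markers was a host, and no marker of any list was the host of a ciRNA.

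The ciRNAs were each seen in few libraries. Of the 46 ciRNAs, 42 (91.3%) had counts in 1 library only, 3 in 2 libraries and 1 in 3 libraries. Of the circRNA rows, 2152 (71.1%) were seen in 1 library, and 341 in 3 or more. MII oocytes held 15 ciRNAs, PN embryos 22 and sperm 13, an order that turned with a minimum of 10 counts, at which 3, 6 and 10 remained. That minimum was lower in sperm relative to the totals. A count of 10 was 59.6 CPM for ciRNA44 in sperm library 2 and 408 CPM for ciRNA30 in PN embryo library 3. The 15, 22 and 13 ciRNAs seen at any count were 32.6%, 47.8% and 28.3% of the ciRNAs. Of the circRNA rows, 48.3%, 42.5% and 32.8% were detected at any count in the same groups. Of the ciRNAs, 13 (28.3%) were seen in MII oocytes only, 20 (43.5%) in PN embryos only and 10 (21.7%) in sperm only, and for circRNA rows the numbers were 931 (30.8%), 711 (23.5%) and 751 (24.8%). No ciRNA was shared by MII oocytes and PN embryos while being at 0 in sperm, whereas 392 circRNA rows had that pattern. The number of ciRNAs followed from single libraries. Without MII oocyte library 3 the count for MII oocytes was 8, without PN embryo library 1 or 3 the count for PN embryos was 14, and sperm libraries 1 and 2 held 5 and 8 ciRNAs with none in common.

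**Figure D1:**
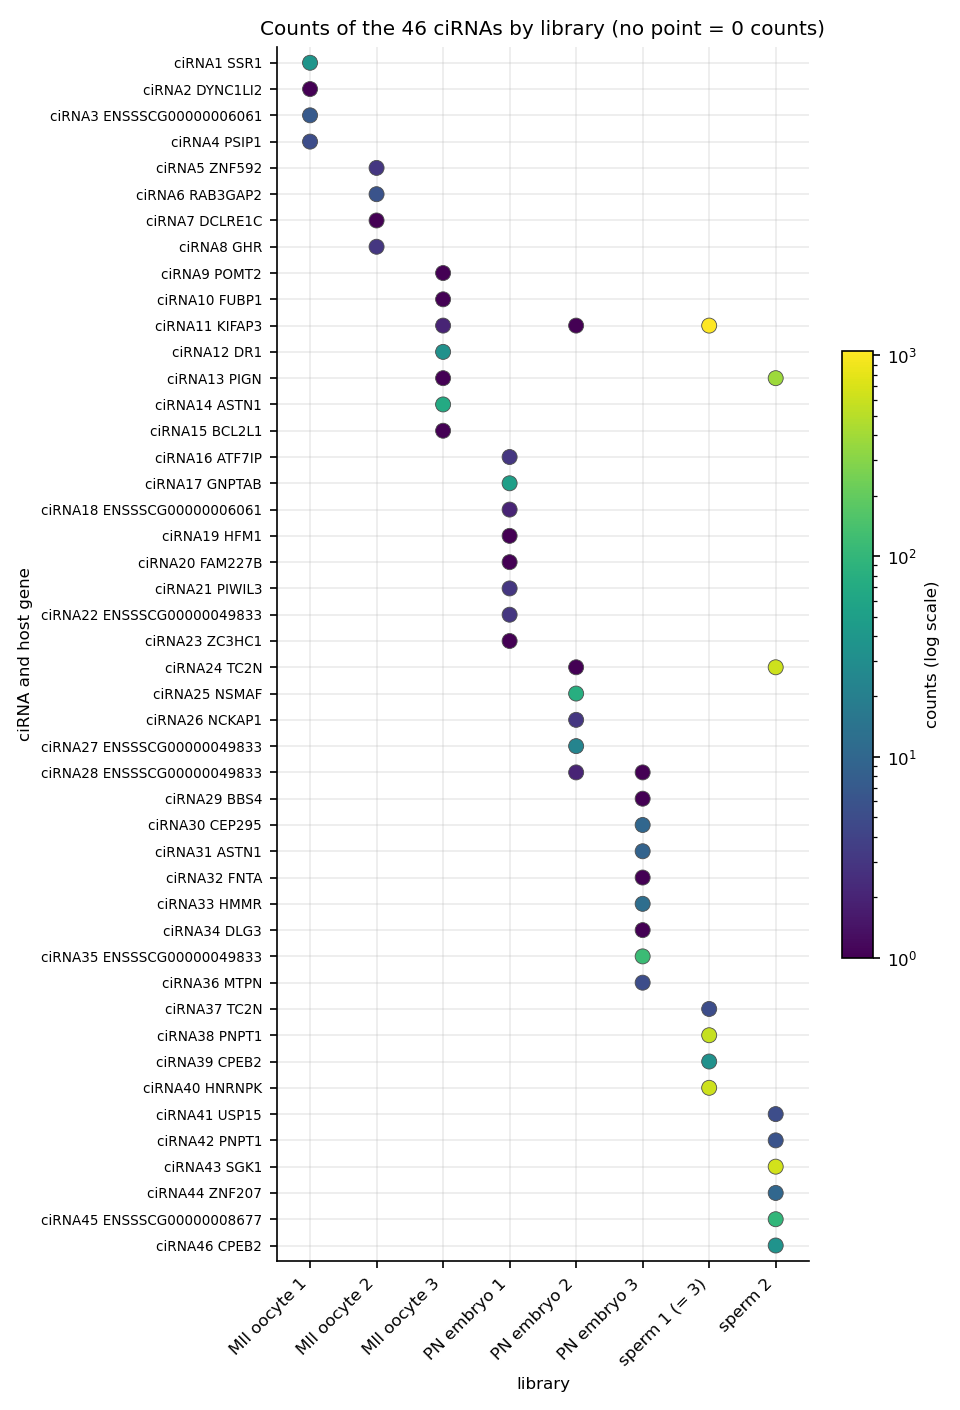
Counts of each ciRNA (rows, with the host gene) in each distinct library (columns), with colour showing the count on a log scale and no point where the count was 0. Only ciRNA11, ciRNA13, ciRNA24 and ciRNA28 have points in more than 1 library, and the brightest points, up to 1056 counts, lie in the sperm columns.

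The share of circRNA counts that fell on ciRNAs was low in all groups and higher in both sperm libraries than in any library of the other groups. In MII oocytes the 3 libraries gave 0.211% (95% Wilson interval 0.160 to 0.277), 0.0542% (0.0317 to 0.0927) and 0.473% (0.392 to 0.571). In PN embryos they gave 0.273% (0.214 to 0.349), 0.416% (0.345 to 0.502) and 0.628% (0.537 to 0.735). The MII oocyte and PN embryo libraries therefore overlapped. Sperm gave 1.46% (1.41 to 1.52) and 1.09% (1.04 to 1.14). The group means were 0.246% ± 0.212 (SD, n = 3) for MII oocytes, 0.439% ± 0.179 (SD, n = 3) for PN embryos and 1.28% ± 0.265 (SD, n = 2) for sperm. In bulk samples such as these, a difference in the number of cells that hold a ciRNA and one in its amount per cell cannot be told apart. The number of ciRNAs detected per library did not follow the same order, with 4, 4 and 7 in MII oocytes, 8, 6 and 9 in PN embryos, and 5 and 8 in sperm. In each library a single ciRNA held between 36.3% and 77.8% of the ciRNA counts, and the 3 highest together held between 87.3% and 98.3%.

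**Figure D2:**
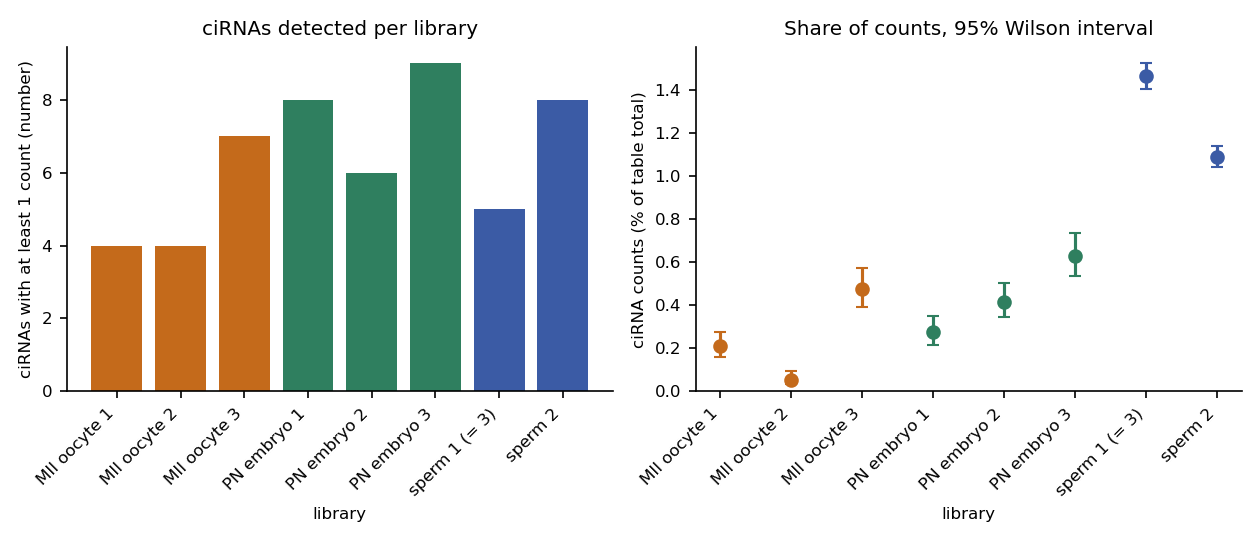
Left, number of ciRNAs with at least 1 count in each distinct library. Right, ciRNA counts as a percent of all counts of the table, with 95% Wilson intervals that cover counting error only. The numbers detected overlap between groups, while both sperm shares, 1.09% and 1.46%, lie above the highest other share of 0.628%.

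Where a ciRNA was detected in MII oocytes or PN embryos it usually had a few counts. The median of the detections was 3 counts in MII oocytes, 3 in PN embryos and 99 in sperm, against 15, 10.5 and 142 for circRNA rows. Detections of at least 10 counts made up 20.0%, 26.1% and 76.9% of those of ciRNAs, and 55.3%, 50.7% and 88.6% of those of circRNA rows. In each group the ciRNAs thus had the lower median. Detection in a single library was not limited to ciRNAs of low counts. Of the 19 ciRNAs that reached 10 counts in some library, 16 (84.2%) were at 0 in the other 7 distinct libraries, and for circRNA rows this was 1391 of 2171 (64.1%). Within groups, 232 circRNA rows (7.67%) were detected in all distinct libraries of a group, and no ciRNA was. These are descriptions of the 2 kinds of row, which share libraries and in part host genes, and they were not tested.

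**Figure D3:**
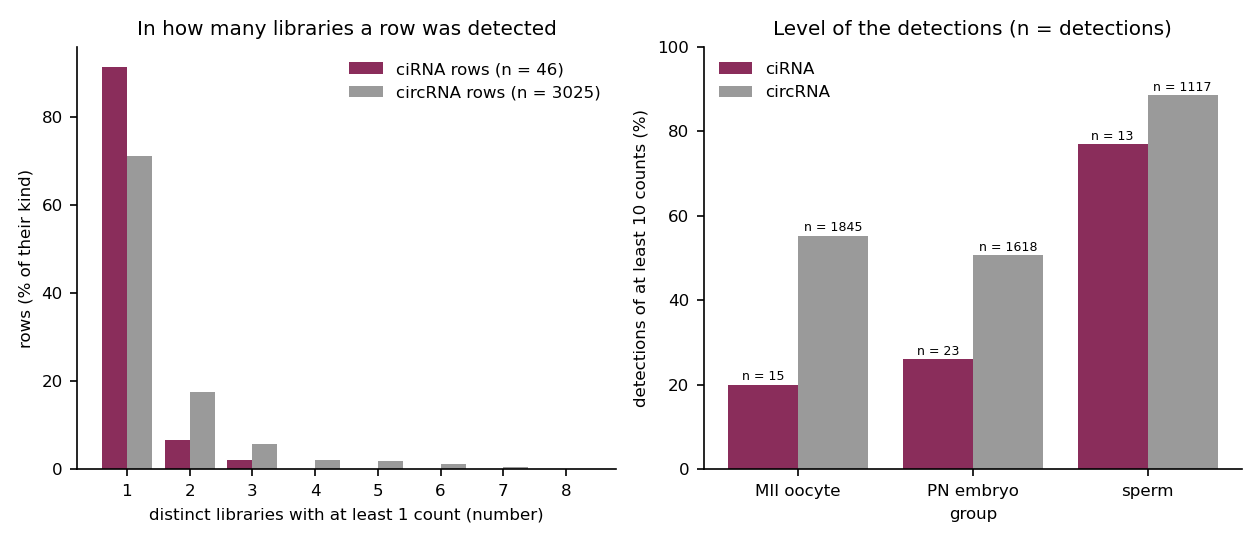
Left, percent of ciRNA and circRNA rows by the number of distinct libraries in which they had at least 1 count. Right, percent of detections (a row above 0 in a library) with at least 10 counts in each group. One library accounts for 91.3% of ciRNAs and 71.1% of circRNA rows, and in each group fewer ciRNA than circRNA detections reach 10 counts.

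Of the ciRNAs seen in several libraries, ciRNA11 had the highest count of all. Its host is KIFAP3 (chr4:80922032-81105135, RefSeq on Sscrofa11.1), which encodes the accessory subunit of the kinesin-2 motor that carries cargo along cilia and flagella. ciRNA11 had 1056 counts in sperm library 1, 2 counts in MII oocyte library 3 and 1 count in PN embryo library 2, and 0 in the other 5 libraries, sperm library 2 included. As CPM these were 6781, 87.7 and 38.2. It ranked 15 among the 562 rows detected in sperm library 1 and was the only ciRNA with counts in every group. ciRNA13 of PIGN (chr1:159317734-159417335), an enzyme of the synthesis of GPI anchors, had 385 counts in sperm library 2 and 1 count in MII oocyte library 3. ciRNA24 of TC2N (chr7:113337815-113389663), a protein with tandem C2 domains, had 624 counts in sperm library 2 and 1 count in PN embryo library 2. For all of these ciRNAs a high count in 1 sperm library stood beside 1 or 2 counts in an oocyte or embryo library and 0 in the other distinct sperm library. ciRNA28, of a host gene given only as ENSSSCG00000049833, was the sole ciRNA found in several libraries of one group, with 2 counts in PN embryo library 2 and 1 count in PN embryo library 3.

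Differences between groups were tested for these ciRNAs by two-sided exact permutation tests of mean CPM. Benjamini-Hochberg adjustment ran over all rows with counts in the groups compared. The mean of ciRNA11 was 3390 ± 4795 CPM in sperm (SD, n = 2), 29.2 ± 50.6 CPM in MII oocytes (SD, n = 3) and 12.7 ± 22.0 CPM in PN embryos (SD, n = 3). The exact p was 0.8 for sperm against either group. Without sperm library 1 the mean of ciRNA11 in sperm was 0. ciRNA13 averaged 1147 ± 1622 CPM in sperm and 14.6 ± 25.3 in MII oocytes, and ciRNA24 averaged 1859 ± 2629 CPM in sperm and 12.7 ± 22.0 in PN embryos, each with an exact p of 0.8. ciRNA28 averaged 39.0 ± 38.2 CPM in PN embryos and 0 in MII oocytes. It was named only through its counts in PN embryos, so no p is given for it. All adjusted p-values of the exact tests were 1, and the SDs exceeded the means in sperm. The smallest exact p that 3 libraries against 3 can give is 0.1, and with 2 sperm libraries it is 0.2. No ciRNA had counts that separated any pair of groups without overlap. Of all rows with counts in the groups compared, 32 of 2310 (1.39%) did so between PN embryos and MII oocytes. Between sperm and MII oocytes 170 of 2340 (7.26%) did, and between sperm and PN embryos 166 of 2127 (7.80%).

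The count models gave no ciRNA that changed either. A row entered edgeR's quasi-likelihood test when it was above 0 in at least 3 libraries of the comparison and passed when its adjusted p was under 0.05 and its log2 fold change was 1 or more in size. No ciRNA met that minimum in any comparison, so none was tested. The test passed 0 of 270 rows (0%) between PN embryos and MII oocytes, with 16 at an unadjusted p under 0.05 and 1 passed by DESeq2. It passed 61 of 123 rows (49.6%) between sperm and MII oocytes, and 54 of 143 rows (37.8%) between sperm and PN embryos. With 2 distinct sperm libraries, a row seen only in sperm could not reach the minimum. A row seen in all MII oocyte or all PN embryo libraries and not in sperm could, so nothing is read from these counts. With a minimum of 2 libraries, ciRNA11 and ciRNA28 were tested between PN embryos and MII oocytes, ciRNA11 and ciRNA13 between sperm and MII oocytes, and ciRNA11, ciRNA24 and ciRNA28 between sperm and PN embryos. Counts of ciRNA28 lay in PN embryos only, so it entered only through the group where it was high, and its p-values are not given. The smallest adjusted p-values of edgeR among the others were 0.916, 0.295 and 0.111. With no minimum, 36, 26 and 33 ciRNAs were tested, and none passed. Most of them had counts in 1 library only and entered through it, so their p-values are not given. A p above the threshold at this depth and number of libraries does not show that levels were equal.

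In MII oocytes the ciRNAs with the highest counts each belonged to 1 library. ciRNA14 of ASTN1 (chr9:118649144-118969032), astrotactin, an adhesion protein of migrating neurons, had 69 counts in library 3 and 0 in the other distinct libraries. ciRNA1 of SSR1 (chr7:4662949-4685892), a subunit of the translocon-associated complex of the endoplasmic reticulum, had 38 counts in library 1. ciRNA12 of DR1 (chr4:123815088-123835875), a repressor that binds the TATA-binding protein, had 33 counts in library 3. As CPM these were 3025, 1569 and 1447, while the remaining MII ciRNAs were near the limit of detection. ciRNA3 of ENSSSCG00000006061 had 7 counts in library 1, and ciRNA6 of RAB3GAP2 (chr10:9734766-9828330), a regulator of Rab GTPases, had 6 counts in library 2. The further MII ciRNAs had 5 counts or fewer. Their hosts were PSIP1, a chromatin-bound coactivator, with 5 counts, the growth hormone receptor gene GHR and the zinc finger gene ZNF592 with 3 counts each, and KIFAP3 with 2. Hosts with 1 count were DYNC1LI2 (a dynein subunit), DCLRE1C (the end-joining nuclease Artemis), POMT2 (a protein O-mannosyltransferase), FUBP1 (a single-strand DNA-binding regulator of MYC), PIGN and BCL2L1 (an inhibitor of apoptosis).

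In PN embryos the same pattern of 1 leading ciRNA in each library was seen, with a different one each time. ciRNA35 of ENSSSCG00000049833 had 114 counts in library 3 and ranked 34 among the 593 rows detected there. ciRNA25 of NSMAF (chr4:74231488-74296681), an adaptor of the TNF receptor that acts on neutral sphingomyelinase, had 79 counts in library 2. ciRNA17 of GNPTAB (chr5:82264640-82460819), which makes the mannose 6-phosphate tag of lysosomal enzymes, had 49 counts in library 1. All 3 were at 0 in the other 7 distinct libraries. ciRNA27, again of ENSSSCG00000049833, had 23 counts in library 2, and ciRNA33 of HMMR (chr16:60290684-60332411), a hyaluronan-binding protein of the mitotic spindle, had 12 counts in library 3. Below these, ciRNA30 of the centriole gene CEP295 had 10 counts, ciRNA31 of ASTN1 had 9 and ciRNA36 of the myotrophin gene MTPN had 5, all in library 3. The others had 1 to 3 counts. Among their hosts were PIWIL3, a PIWI protein that binds small RNAs in oocytes, with 3 counts, and HFM1, a helicase of meiotic crossing over, with 1 count. ATF7IP, a partner of the histone methyltransferase SETDB1, and NCKAP1, a subunit of the actin-regulating WAVE complex, had 3 counts each. ENSSSCG00000006061 had 2 counts in ciRNA18, and the ciRNAs of FAM227B, ZC3HC1, BBS4 (a ciliary BBSome subunit), FNTA (a protein farnesyltransferase subunit), DLG3 (a synaptic scaffold protein), KIFAP3 and TC2N had 1 count each.

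In sperm 7 ciRNAs had 99 counts or more, a level that only ciRNA35 exceeded outside sperm. In library 1, ciRNA11 was followed by ciRNA40 of HNRNPK (chr10:30975639-30987955), an RNA-binding protein of the spliceosome and of translation, with 617 counts, and by ciRNA38 of PNPT1 (chr3:85595356-85639665), the mitochondrial polynucleotide phosphorylase, with 569. Both were at 0 in sperm library 2. There the order was ciRNA43 of SGK1 (chr1:29625786-29753619), the serum- and glucocorticoid-regulated kinase, with 664 counts, then ciRNA24 of TC2N with 624 and ciRNA13 of PIGN with 385. ciRNA45 of ENSSSCG00000008677 had 99 counts in library 2. None of these had counts in the other distinct sperm library. In CPM the leading ciRNAs of the groups lay closer together than in counts, with 6781 for ciRNA11, 3962 for ciRNA40 and 3956 for ciRNA43 in sperm, 4652 for ciRNA35 and 3015 for ciRNA25 in PN embryos, and 3025 for ciRNA14 in MII oocytes. The lower ciRNAs of sperm were ciRNA39 and ciRNA46 of CPEB2 with 33 and 36 counts, ciRNA44 of ZNF207, a kinetochore and spindle protein, with 10, ciRNA42 of PNPT1 with 6, and ciRNA37 of TC2N and ciRNA41 of the deubiquitinase gene USP15 with 5 each.

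Some host genes gave different ciRNAs in different libraries. Several ciRNAs were listed for 6 of the 38 hosts (15.8%), and 615 of 1702 circRNA hosts (36.1%) had several circRNA rows. ENSSSCG00000049833 had 4 ciRNAs, more than any other host. Summed over them it had 3, 25 and 115 counts in PN embryo libraries 1, 2 and 3, and 0 in every MII oocyte and sperm library. Within MII oocytes and PN embryos, it was the only host with ciRNA counts in all 3 libraries of a group. Since it was singled out for that pattern, no test is given. In sperm, CPEB2 (chr8:10401350-10472141), which binds cytoplasmic polyadenylation elements and controls translation, gave ciRNA39 in library 1 with 33 counts and ciRNA46 in library 2 with 36 counts. PNPT1 gave ciRNA38 with 569 counts in library 1 and ciRNA42 with 6 in library 2. TC2N gave ciRNA37 with 5 counts in library 1 and ciRNA24 with 624 in library 2. These hosts thus had counts in both distinct sperm libraries, each time under different identifiers. ASTN1 gave ciRNA14 in MII oocyte library 3 with 69 counts and ciRNA31 in PN embryo library 3 with 9, and ENSSSCG00000006061 gave ciRNA3 in MII oocyte library 1 with 7 counts and ciRNA18 in PN embryo library 1 with 2. How far apart the circles of one host lie was not analysed here.

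Most hosts of ciRNAs had no circle of the other kind. Of the 38 hosts, 25 had no circRNA row and 13 (34.2%) had 20 circRNA rows between them. Both kinds were found in the same library for 4 of these hosts. SSR1 had 38 counts of ciRNA1 and 34 of circRNA1 in MII oocyte library 1, and both were at 0 elsewhere. GNPTAB had 49 counts of ciRNA17 and 5 of circRNA1511 in PN embryo library 1. In PN embryo library 2, KIFAP3 had 1 count of ciRNA11 and 39 of circRNA1818, which was at 0 in sperm. In sperm library 2, PIGN had 385 counts of ciRNA13 and 456 of circRNA2826, and its circRNA240 had 6 counts in MII oocyte library 1. The first pair and the last pair were at similar levels, whereas the ciRNA was the higher one for GNPTAB and the lower one for KIFAP3.

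For the other 9 hosts the kinds never met in a library. PNPT1, whose ciRNAs were seen in sperm, had circRNA141 with 48 and 67 counts in MII oocyte libraries 1 and 2 and with 3 and 1 counts in PN embryo libraries 1 and 3, and circRNA1840 with 3 counts in PN embryo library 2. POMT2 went the other way, with 918 and 314 counts of circRNA1766 in sperm libraries 1 and 2, 2 counts of it in PN embryo library 2 and 1 count of ciRNA9 in MII oocyte library 3. NCKAP1 had ciRNA26 with 3 counts in PN embryo library 2, and its circRNA2620 and circRNA2979 had 58 and 138 counts in sperm libraries 1 and 2. ZNF207 had 476 counts of circRNA2476 in sperm library 1 and 10 counts of ciRNA44 in sperm library 2. The remaining hosts of this kind were BBS4, HFM1, HMMR, PIWIL3 and USP15, with circRNA rows of 1 to 76 counts in MII oocytes or PN embryos.

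**Figure D4:**
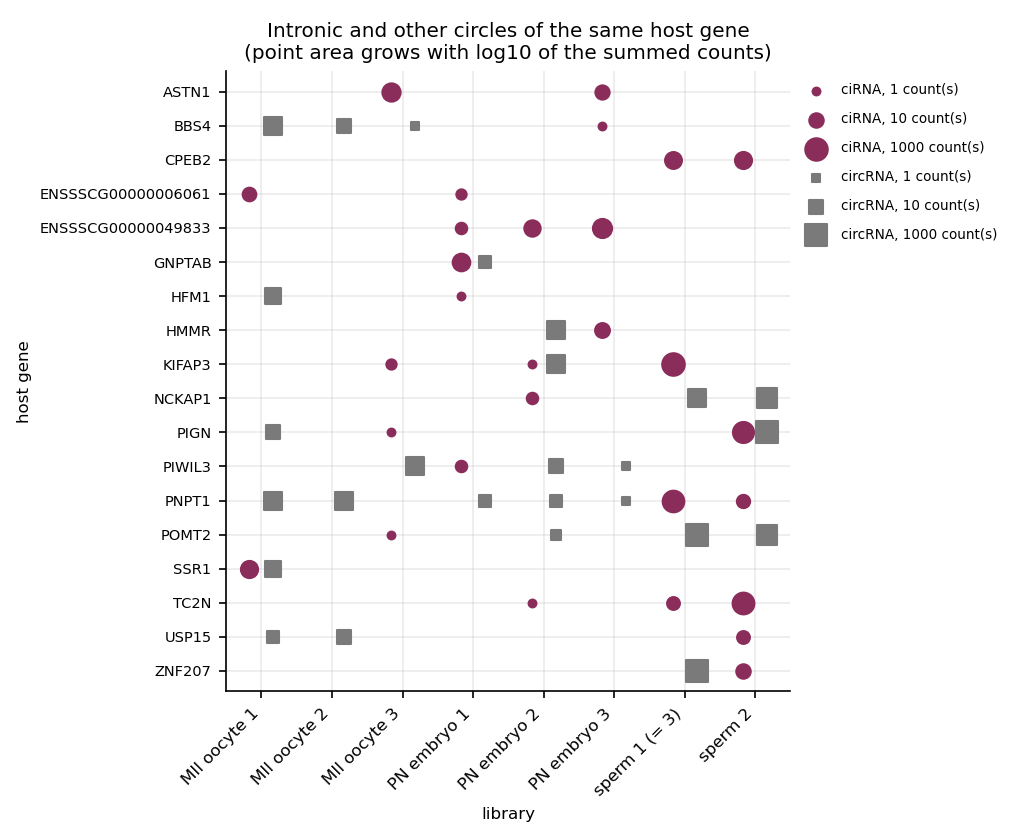
Summed counts of ciRNAs (circles) and circRNAs (squares) by library for the 18 host genes with several ciRNAs or with both kinds, with point area growing with log10 of the count and no point at 0. ENSSSCG00000049833 has circles in all 3 PN embryo libraries only, and circles and squares share a library for SSR1, GNPTAB, KIFAP3 and PIGN.

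The lncRNA table was used to ask whether other RNA carried the name of a ciRNA host in the same libraries. It gives coverage, the average number of reads over each base of a transcript, and lists 109 transcripts under the gene names of 28 of the 38 hosts. Of these, 106 were assembled from the reads and 3 were annotated lncRNAs, all of ENSSSCG00000049833. How an assembled transcript lies relative to its named gene is not given in the sources used here, so it can be an intronic, antisense or overlapping RNA. All 9 libraries have distinct columns in this table. Summed coverage of the host reached 1 in 28 of 41 cases (68.3%) in which a ciRNA was present in a library, and in 141 of 247 cases (57.1%) in which it was absent. With sperm library 3 in place of sperm library 1 the numbers were 29 of 41 (70.7%) and 138 of 247 (55.9%). The cases share hosts and libraries, and no test is given.

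Among the hosts of the ciRNAs with high counts in sperm, HNRNPK and ENSSSCG00000008677 had no transcript in the lncRNA table, and those of the other hosts had high coverage in some sperm libraries and none or little in others. The TC2N transcript MSTRG.65226.1 had a coverage of 690 in sperm library 2, where ciRNA24 had 624 counts, and 0 in the other 8 libraries. The PIGN transcript MSTRG.7627.1 had a coverage of 71.0 in sperm library 2, where ciRNA13 had 385 counts, and 0 elsewhere. The high ciRNA count and the highest coverage of these hosts were thus in the same library, but the lower values did not go together. PIGN had a summed coverage of 12.9 and 37.1 in PN embryo libraries 1 and 2, where ciRNA13 had no count, and 0 in MII oocyte library 3, where it had 1 count. TC2N had no coverage in sperm library 1 or PN embryo library 2, where ciRNA37 and ciRNA24 had 5 counts and 1 count. The PNPT1 transcript MSTRG.46723.1 went differently, with 602 in sperm library 2, where ciRNA42 had 6 counts, and 0 in sperm libraries 1 and 3, for which the circRNA table lists 569 counts of ciRNA38. The SGK1 transcript MSTRG.4027.1 had 464 in sperm library 3 alone and 0 in sperm library 2, the library of ciRNA43. CPEB2 had transcripts in every sperm library, with a summed coverage of 313, 1107 and 589, and each transcript had a coverage above 1 in 1 library only. KIFAP3 had a summed coverage of 0.99 in sperm library 1 and 1468 in sperm library 3, whose circRNA columns are the same, and of 257 in sperm library 2, in which ciRNA11 had no count. Its transcript MSTRG.50122.1 had a coverage of 40.3, 43.7 and 33.9 in PN embryos, 0 in all MII oocyte libraries, and 0.99, 0 and 969 in sperm. It entered the limma test only through PN embryos, so that no test value is given for it.

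Between PN embryos and MII oocytes, none of the 35 host transcripts tested with limma on log2(coverage + 1) passed, and of all transcripts tested 12 of 19810 (0.0606%) did. At an unadjusted p under 0.05 there were 11 host transcripts (31.4%) of 8 hosts, 4 with higher and 7 with lower values in PN embryos, and over all transcripts the share was 7.43%. Of the 11, 4 had a coverage below 1 in every library of 1 group and entered the test only through the group where they were high, namely MSTRG.32969.8 of GHR, MSTRG.50122.1 and MSTRG.50125.1 of KIFAP3 and MSTRG.53168.1 of USP15. Nothing is read from the 2 shares. Of the other 7, 3 had higher and 4 had lower values in PN embryos. The lowest adjusted p among the host transcripts was that of MSTRG.35088.1 of FNTA, whose difference was also too small to pass. Its coverage was 1053, 963 and 1122 in MII oocytes, 1492, 1603 and 1718 in PN embryos, and 0.84, 0.87 and 0.42 in sperm. PN embryos lay above MII oocytes in all libraries, with a log2 difference of 0.62 (SE 0.13) and an adjusted p of 0.185 with limma. MSTRG.64907.1 of POMT2 had 891, 743 and 709 in MII oocytes, 513, 453 and 326 in PN embryos, and 43.0, 0.86 and 16.01 in sperm. Here PN embryos lay below MII oocytes, with a log2 difference of -0.87 (SE 0.22) and an adjusted p of 0.387 with limma. Other host transcripts also had no overlap, such as MSTRG.32966.1 of GHR, lower in PN embryos, and MSTRG.37193.1 of MTPN, higher in them. The share over all transcripts without overlap was not computed. For the host of the 4 PN embryo ciRNAs the values of PN embryos and MII oocytes overlapped. The annotated lncRNA ENSSSCT00000090939 of ENSSSCG00000049833 had a coverage of 174, 0 and 156 in MII oocytes, 51.9, 64.7 and 16.8 in PN embryos, and 44.8, 102 and 0 in sperm, so that it was present in MII oocyte and sperm libraries in which no ciRNA of this gene was counted. For ASTN1, MSTRG.73195.1 had 69.3, 46.1 and 51.6 in MII oocytes, 28.7, 6.19 and 1.88 in PN embryos and 0 in sperm, and the ASTN1 ciRNAs were likewise seen in MII oocytes and PN embryos and not in sperm.

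Many of the host transcripts that could be tested against sperm had a coverage below 1 in all sperm libraries. Against MII oocytes 24 host transcripts were tested, of which 15 had a coverage below 1 in every sperm library, and against PN embryos this was 11 of 22. Of all transcripts tested, 81.6% and 78.1% had such values in sperm. Such transcripts were tested only because of the group in which they were high, so that a lower value in sperm was fixed by the filter and their p-values are not given. FNTA MSTRG.35088.1 is one of them. In all, 18 of 24 and 16 of 22 host transcripts passed, all lower in sperm, beside 9649 of 11162 (86.4%) and 8321 of 10022 (83%) over all transcripts, and of the host transcripts that passed 4 and 5 reached a coverage of 1 in some sperm library. Nothing is read from these counts. Quantile normalization left 5 host transcripts passing in each comparison, all of them lower in sperm, beside 11.7% of all transcripts in the MII oocyte comparison, of which 596 were higher and 712 lower, and 12.2% in the PN embryo comparison, with 575 up and 646 down. Leaving out an MII oocyte library left 1 or 2 of 7 or 8 tested host transcripts passing, beside 20.8% to 24.6% of all transcripts tested, and leaving out a PN embryo library left 0 or 1 of 8 or 9, beside 20.1% to 22.2%. In these fits a transcript had to have coverage in sperm to be tested, and more of all transcripts that passed were higher than lower in sperm, for example 252 and 122 without MII oocyte library 1. Without sperm library 3, 1 host transcript passed as higher in sperm than in PN embryos. The filter also kept out transcripts high in a single sperm library, and 19 of the 109 host transcripts were seen in 1 sperm library only. Summed over its transcripts, USP15 had a coverage of 1438, 2326 and 0 in sperm libraries 1, 2 and 3 against 96.9 to 242 in MII oocytes and PN embryos, and BBS4 had 1764, 884 and 0 against 5.88 to 129. For both, the highest and the lowest summed coverage were found in sperm.

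**Figure D5:**
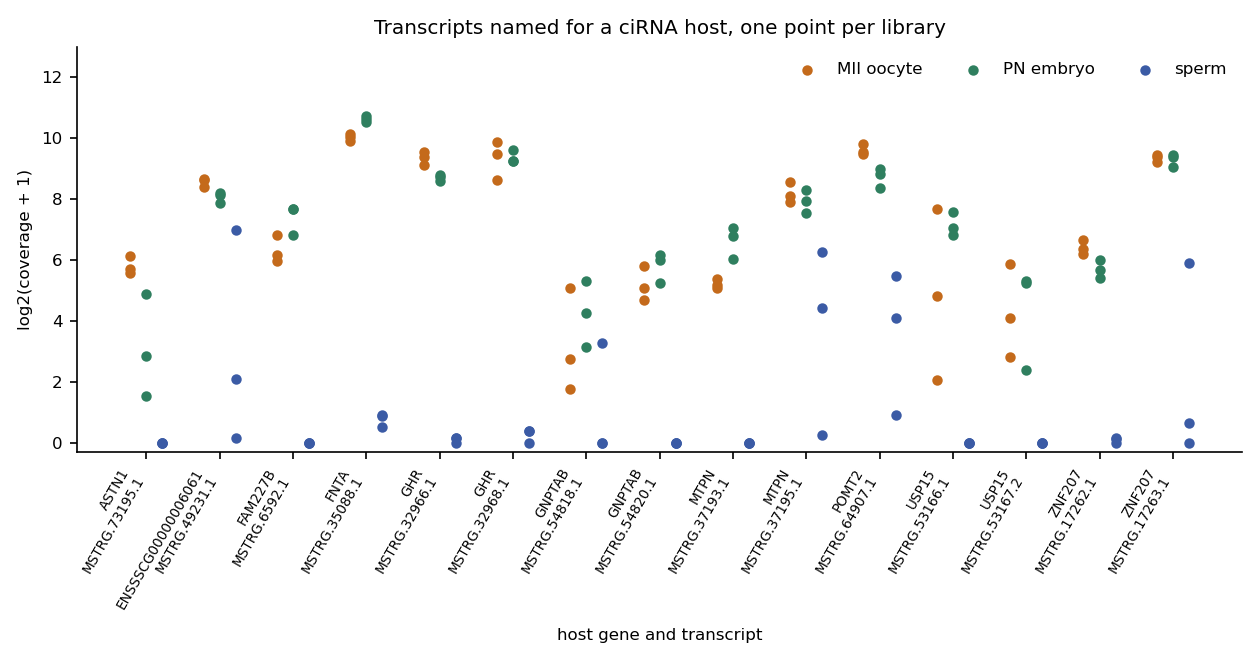
Coverage as log2(coverage + 1) of the 15 lncRNA-table transcripts of 10 ciRNA hosts with a coverage of at least 1 in all 6 MII oocyte and PN embryo libraries, with 1 point per library and sperm libraries shown as 3. MII oocytes and PN embryos lie near each other for most of them, and sperm values are at or near 0 for most, with 1 or 2 higher sperm libraries for GNPTAB MSTRG.54818.1, MTPN MSTRG.37195.1, POMT2, ZNF207 MSTRG.17263.1 and ENSSSCG00000006061.

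The hosts were otherwise spread over the genome. RefSeq entries on Sscrofa11.1 were found for 35 of the 38 hosts, on 16 chromosomes. Their genes had a median length of 59.5 kb, from 12.3 kb for HNRNPK to 320 kb for ASTN1, and the 1542 matched circRNA hosts had a median of 102 kb. Genes that act on intron lariats and on circle formation were looked up as hosts. Of a list of 26, among them the debranching enzyme DBR1, 3 were hosts in the table and none was the host of a ciRNA. AQR, a helicase of the spliceosome that binds introns, had circRNAs with 46 counts in PN embryo library 2 and 111 in sperm library 1. The RNA helicase DHX9 had 11 counts in MII oocyte library 3, and the splicing regulator MBNL2 had 4 in PN embryo library 2.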

How the data were processed

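The authors deposited 1 table of whole-number counts per circRNA row, without normalization, with a host gene name for each row. In the lncRNA table the authors deposited coverage, a signal that gives the mean read depth along a transcript, so the reads behind a value are unknown. The mRNA table was not used here. Per the labels, rRNA-depleted strand-specific libraries were sequenced, and the submitters' processing notes list cutadapt 1.9, TopHat2 2.0.4, HISAT2 2.0.4, StringTie 1.3.4d, edgeR and the genome build Sscrofa 11.1. The circRNA caller, and how ciRNA and circRNA rows were told apart, are not given in the sources used here. Libraries were amplified by PCR, and no molecular identifiers are mentioned. Total counts were 22809 to 167851 per library.

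Groups came from the sample labels. Each table has 9 sample columns, of which 0 were unused, and the identical sperm columns were counted as 1 library. Counts were tested on all rows with edgeR 4.0.16 (TMM, glmQLFit and glmQLFTest) in R 4.3.3, each pair of groups alone, for rows above 0 in at least 3 libraries. Coverage was tested with limma 3.58.1 (trend) on log2(coverage + 1) for transcripts with at least 1 in at least 3 libraries, and such differences understate changes of low transcripts. The p-values were adjusted by Benjamini and Hochberg's method, and a log2 fold change of 1 or more in size was also required. Exact permutation tests used scipy 1.17.1. The scripts were tested on simulated data. The rule for named members gives every library's count for ciRNAs seen in at least 2 libraries, the 5 with the highest counts in each group and any that passed, and the rest by host and range. Host symbols were matched to RefSeq. Of the hosts, 5 are given by Ensembl identifier, of which 2 could be paired with a symbol (BBS4 and PIWIL3). The members and lists were chosen with earlier results of these data known, and the test of host transcripts was chosen after seeing the tables. Alternatives were other filters, no TMM, DESeq2 1.42.0, a replicate block, all groups in 1 fit, the adjusted p alone, the identical columns as 2 libraries, and each library left out in turn.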

Additional observations from a re-analysis of the deposited data

How the results depend on the processing

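No alternative passed a ciRNA, but of the 13 alternatives in each comparison only those with no filter, with a minimum of 2 libraries, with all groups in 1 fit and, for sperm, with the identical columns as 2 libraries tested any, so the others say nothing about ciRNAs. With at least 3 counts, ciRNAs detected were 8 in MII oocytes, 12 in PN embryos and 13 in sperm, and with at least 10 counts 3, 6 and 10, so that sperm then held the most and not the fewest. A fixed minimum count is a smaller share of the larger sperm totals, so these minimums were not equal between groups. With counts in at least 2 libraries they were 0, 1 and 0 in MII oocytes, PN embryos and sperm. Leaving out a library gave 8 to 11, 14 to 17 and 5 to 8. Without the ciRNA of the highest count the share was 0.145% in MII oocytes, 0.284% in PN embryos and 0.938% in sperm, and the MII oocyte share was 0.132% without library 3. The other alternatives for the share stayed within 1 SD of it, and the order of the group means was the same in all. With a library left out, an alternative chosen after seeing the data, the difference in mean CPM ran from -29.2 to 6752 for ciRNA11 and from -14.6 to 2279 for ciRNA13 (sperm minus MII oocytes), and from -12.7 to 3705 for ciRNA24 (sperm minus PN embryos), with the negative values given by leaving out the sperm library that held the ciRNA. For all rows, DESeq2 passed 1 between PN embryos and MII oocytes. Between sperm and MII oocytes, and between sperm and PN embryos, the rows passed were 19 and 8 with no filter, 10 and 17 with a minimum of 2 libraries, 31 and 24 with all groups in 1 fit, 134 and 109 with the identical columns as 2 libraries, and 0 to 19 and 0 to 31 with a library left out. Where the calls split by direction, DESeq2 gave 18 higher and 60 lower in sperm than in MII oocytes, against 8 and 53, and 17 higher and 62 lower than in PN embryos, against 1 and 53. Without TMM the splits were 17 and 53, and 15 and 29, and with the identical columns as 2 libraries most calls were higher in sperm, 76 and 58, and 64 and 45. Except in that last setting, sperm had 2 libraries, so a row seen only in sperm could not reach the minimum of 3. Nothing is read from these directions. With the replicate block 0 rows passed in each. Same-numbered libraries correlated between -0.05 and 0.13 in their deviations, which with 2 or 3 libraries per group cannot show whether the numbers pair them. Host transcripts passing between PN embryos and MII oocytes were 1 with no filter and 0 to 1 with a library left out. Those of sperm were 5 and 5 with quantile normalization, and 1 to 17 against MII oocytes and 0 to 14 against PN embryos with a library left out. Fewer rows or transcripts reach the minimum of 3 libraries when a library is left out, and other causes were not tested. With 22809 to 26200 counts in oocyte and embryo libraries, a ciRNA at 0 may be present below the limit of 3 counts.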

Other observations

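The numbers in the identifiers ran in the order of the libraries. Sorted by number from 1 to 46, the ciRNAs first appeared in MII oocyte libraries 1 to 3, then in PN embryo libraries 1 to 3 and then in sperm, with 0 out of that order, and the same held for the circRNA rows with 0 out of order. A low number therefore marks a row first seen in an MII oocyte library and not a level. The rows whose log2(CPM + 1) values followed ciRNA11 most closely over the 8 distinct libraries were circRNA1165 of CELF1 (Pearson r = 0.92), circRNA1453 of IQUB (0.92) and circRNA1176 of ENSSSCG00000051601 (0.92). Each of these had 1 count in MII oocyte library 3, 556, 379 and 684 counts in sperm library 1, and 0 elsewhere, so the likeness rests on 2 libraries and is given as a description.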
